A study of Mus musculus with 12 samples.

Results

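Isolated focal domains of histone H3 lysine 27 trimethylation (H3K27me3) in mouse hepatocytes at postnatal day 14 (P14) were examined, together with the M2 (age 2 months) domains found at the same places. A domain is an interval that the authors listed as marked. Isolated focal domains were selected on their length and spacing in the P14 list alone: autosomal domains of 3 to 10 kb whose nearest other P14 domain, on either side, lay 10 kb or more away from edge to edge. There were 2879 of them, out of 55401 autosomal P14 domains of that length and 205787 autosomal P14 domains in all. They were compared with the 33703 clustered domains, which have the same range of lengths and another P14 domain within 2 kb. The remaining 18819 domains of 3 to 10 kb, with the nearest neighbour 3 to 9 kb away, are termed intermediate. A P14 domain is described as overlapped at M2 when an M2 domain shared at least 1 bp with it.

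All samples came from wild-type (Wt) mice without treatment in the labels, and consisted of hepatocytes isolated by liver perfusion and pelleted at low speed. The P14 list belongs to 4 ChIP samples, 2 of them male and 2 female, and the series also holds 4 inputs of the same make-up. The M2 list belongs to 2 ChIP samples of unknown sex, with 2 inputs of unknown sex beside them. The labels give these M2 samples as re-analyses of other deposited samples. Whether the inputs entered either list is not given. Age, sample origin, the number of pooled samples and the recorded sexes therefore changed together and cannot be told apart. Each list pools its samples, so no difference between ages has a replicate check, and no p-value is given. The identity of the cells was not checked against markers, because the lists hold no expression values.

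H3K27me3 is written by Polycomb repressive complex 2 (PRC2), whose catalytic subunit is EZH2 or its paralogue EZH1. The mark is bound by the EED subunit of the same complex, which helps it to spread to neighbouring nucleosomes and to be carried through cell division. Narrow domains of the mark are known at CpG-rich promoters of silent genes, and broad ones over clusters of developmental regulators such as the Hox genes. The series title concerns EZH1 and EZH2 in the maturation of the liver after birth. The comparison given here asks whether narrow, solitary patches of the mark in young hepatocytes were also marked in the adult list. Genes were not placed on the domains and no sequence is shown, because mm9 gene positions and sequence were not used here.

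The isolated domains were short, and short neighbours bounded them. They covered 11.2 Mb, which was 2.07% of the autosomal length marked at P14, and they made up 5.20% of the domains of 3 to 10 kb. Domains of 3 kb contributed 1625 of the 2879 (56.4%) and domains of 4 kb another 639 (22.2%), while 9 and 10 kb gave 23 and 18. The mean length was 3.88 kb, against 4.68 kb among clustered domains. The distance to the nearest P14 domain had a median of 13 kb, quartiles of 11 and 17 kb and a highest value of 96 kb. In 497 domains (17.3%) both sides were free of P14 domains for 20 kb or more. The nearest neighbour was a single grid bin of 1 kb in 1712 cases (59.5%), against 46.6% of all autosomal P14 domains, and it was itself an isolated focal domain in 178 (6.18%). These figures follow in part from the rule and are given as a description.

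The isolated domains were spread over every autosome. They numbered from 71 on chromosome 19 to 254 on chromosome 1, and their density ran from 0.974 per Mb on chromosome 2 to 1.40 per Mb on chromosome 16. Of the 2425 windows of 1 Mb between the first and last P14 domain of each chromosome, 1620 windows held at least 1 of them and 34 windows held 5 or more. The densest window was at chr4:146000001-147000000, with 7 isolated domains, of which 4 were overlapped at M2. P14 domains covered 7.8% of that window and M2 domains 5.0%. Another window, at chr1:8000001-9000000, held 5, none of which was overlapped, although M2 domains covered 10.3% of that window and P14 domains 13.8%. These windows were picked after their values were seen.

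More than 4 in 10 isolated domains had no M2 domain on them, and the overlapped ones were usually covered in part. At M2, 1581 of 2879 were overlapped (54.9%, exact Clopper-Pearson 95% interval 53.1 to 56.7), and 1298 (45.1%) were untouched. Among all autosomal P14 domains of 3 to 10 kb the share overlapped was 79.5%, and among clustered domains it was 84.7% (28548 of 33703, interval 84.3 to 85.1). The isolated share was thus lower than the clustered share by 29.8 percentage points, with a value of -29.8 for isolated minus clustered (Newcombe 95% interval -31.7 to -27.9). The intermediate domains fell between them, with 73.9% overlapped (13899 of 18819). Between the first and last P14 domain of each autosome, M2 domains covered from 23.9% (chromosome 10) to 32.9% (chromosome 11) of the span. Some overlap by 1 bp is therefore met by placement alone, and its share was not estimated. The intervals cover counting error only and treat neighbouring domains as independent, and no test over animals was possible.

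Stricter definitions of overlap kept the order of the classes. Cover of 50% or more of the domain was seen in 1050 isolated domains (36.5%), against 64.0% of all domains of 3 to 10 kb and 70.8% of clustered ones. Cover in full was seen in 388 (13.5%), against 29.5% of all and 34.6% of clustered domains. By length, M2 domains covered 4.11 of the 11.2 Mb (36.8%), against 67.3% of the length of clustered domains. Within the isolated domains that were overlapped, 62.3% of the length was covered, against 76.5% in clustered ones. When a single M2 domain had to share 50% of both domains, the shares were 30.4% and 36.5%, and the difference was -6.15 percentage points. With M2 domains under 3 kb left out, 32.2% of isolated and 70.7% of clustered domains were overlapped, and the difference was -38.5 points.

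Overlap of isolated domains went with their length, and this was not particular to them. Among all autosomal P14 domains of 3 to 10 kb, the share overlapped was 68.7% at 3 kb and 98.3% at 10 kb. Of those of 3 kb, 746 of 1625 were overlapped (45.9%, interval 43.5 to 48.4). At 4 kb it was 362 of 639 (56.7%, interval 52.7 to 60.5), at 5 kb 190 of 269 (70.6%, interval 64.8 to 76.0) and at 6 kb 136 of 171 (79.5%, interval 72.7 to 85.3). From 7 to 10 kb the shares were 82.6%, 85.7%, 87.0% and 83.3%, on 92, 42, 23 and 18 domains, and their intervals overlapped one another. A longer domain offers more bins to be met, so the middle 1 kb of each domain was also read on its own. In isolated domains it was covered at M2 in 31.9% at 3 kb, 37.2% at 4 kb, 46.1% at 5 kb, 46.2% at 6 kb and 72.2% (13 of 18) at 10 kb. Among all domains it was covered in 51.5% at 3 kb and 84.5% at 10 kb. Cover of isolated domains in full was between 9.78% and 15.2% at each length from 3 to 8 kb. It was 26.1% (6 of 23) at 9 kb and 33.3% (6 of 18) at 10 kb.

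Clustered domains lay above isolated ones at each of the 8 lengths in the share overlapped. At 9 kb the exact intervals overlapped, with 66.4 to 97.2 on 23 isolated domains and 96.6 to 98.4 on clustered ones. The gap in the share overlapped was 29.0 percentage points at 3 kb, 27.5 at 4 kb, 19.4 at 5 kb and 14.4 at 6 kb, and between 10.7 and 15.5 from 7 to 10 kb. The shares of clustered domains neared 100% at those lengths, which leaves less room for a gap. In the middle 1 kb, the gap was 25.6 points at 3 kb and 30.7 at 7 kb, and it was 7.35 at 9 kb and 13.8 at 10 kb, where isolated domains were few. Restricted to 5 to 10 kb, the difference between the classes in the share overlapped was -17.1 percentage points.

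**Figure D1:**
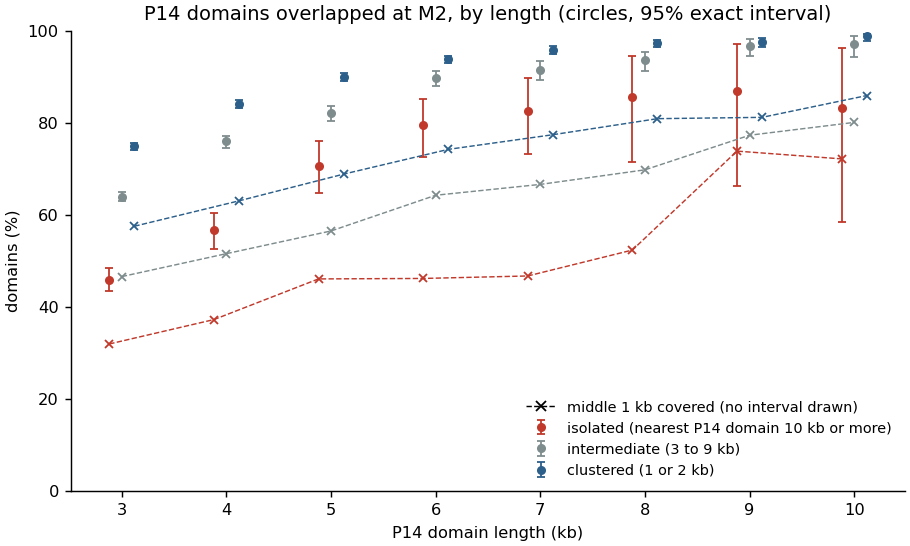
Share of P14 domains overlapped at M2 (circles, exact 95% intervals) and share with the middle 1 kb covered at M2 (crosses) against P14 domain length in kb, for isolated, intermediate and clustered domains. Isolated domains lie lowest at every length, from 45.9% at 3 kb to 83.3% at 10 kb by overlap.

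Distance to the nearest P14 domain was related to overlap on both sides of the 10 kb limit. Domains with a neighbour at 1 kb were overlapped in 86.5% of cases, those at 4 kb in 75.4% and those at 7 to 9 kb in 64.4%. Among isolated domains the share was 57.9% at 10 to 12 kb (737 of 1273), 55.7% at 13 to 16 kb (451 of 809), 51.1% at 17 to 24 kb (276 of 540) and 45.1% at 25 to 49 kb (102 of 226). Beyond that, 15 of 31 were overlapped (48.4%, interval 30.2 to 66.9), which cannot be told from the neighbouring values at this number. M2 cover of the surroundings changed with the same distance. Measured 10 to 50 kb outside both edges, its median was 52.5% for domains with a neighbour at 1 kb, 25% at 10 to 12 kb, 6.25% at 25 to 49 kb and 0% at 50 kb or more.

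Length and distance were also read together within the isolated domains. Domains of 3 kb were overlapped in 48.6% of cases at 10 to 12 kb from the nearest neighbour and in 38.0% at 20 kb or more (108 of 284). Those of 6 to 10 kb were overlapped in 83.8% (134 of 160) and 73.7% (42 of 57) at the same distances. The long and remote domains therefore lay above the short and less remote ones. Just outside the limits of the rule, domains with a neighbour at 9 kb were overlapped in 60.7% of cases (428 of 705), against 59.1% (320 of 541) at 10 kb. Equally remote domains of 2 kb were overlapped in 34.9% of cases (1684 of 4822), and all 38 remote domains over 10 kb, which reached 38 kb, were overlapped. On the side of the clustered domains, the shares were 81.6% at 2 kb and 78.5% at 3 kb.

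**Figure D2:**
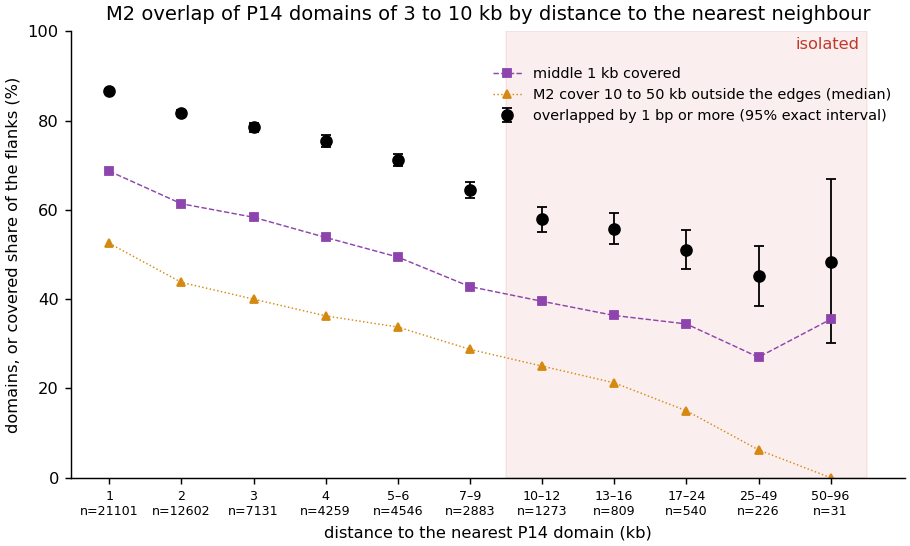
Share of P14 domains of 3 to 10 kb overlapped at M2 (black, exact 95% intervals), share with the middle 1 kb covered (squares) and median M2 cover of the flanks 10 to 50 kb outside the edges (triangles), all in percent, against distance to the nearest P14 domain in kb. The shaded bins hold the isolated domains, where overlap ran from 57.9% at 10 to 12 kb to 45.1% at 25 to 49 kb while the flank median went from 25% to 6.25%.

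M2 marking was higher on the isolated domains than beside them, although the surroundings were sparse. The middle 1 kb lay in an M2 domain at 36.6% of isolated domains (1055 of 2879), against 21.4% of the 1 kb bins 20 to 50 kb outside their edges, a difference of 15.2 percentage points and a ratio of 1.71. For intermediate domains these levels were 52.8% and 36.7%, and for clustered domains 65.9% and 48.5%, so that the difference was 16.1 and 17.4 points and the ratio 1.44 and 1.36. The classes thus differed by 29.3 points in the middle of the domain. Measured from 20 to 50 kb outside, the step to the middle was between 15.2 and 17.4 points in all 3. The order of the steps depended on this band. At 10 to 20 kb outside, cover was 20.3% for isolated, 38.1% for intermediate and 51.7% for clustered domains. At 5 to 10 kb, where the rule leaves no P14 domain beside isolated ones, it was 16.9%, 38.3% and 53.2%. With either of these bands the step was largest at isolated domains. Whether these steps differ was not tested. Stretches that neither list marks were counted as uncovered, whether or not reads can be placed there.

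M2 cover was higher just inside the border than just outside it in all 3 classes. At isolated domains, M2 domains covered 16.9% of the bins 5 to 10 kb outside, 18.7% in the second kb outside, 23.3% in the first kb outside and 32.7% in the first kb inside. The second kb inside was covered at 37.9%, and the third, present only in longer domains, at 49.1%. Within the 175 isolated domains of 7 to 10 kb alone, cover was 46.9% in the first kb, 54.6% in the second, 53.4% in the third and 56.6% in the fourth. From the second kb to 10 kb outside an isolated domain, M2 cover was lower than in the bins 40 to 50 kb away (21.9%). The first kb outside lay above that level. All of this stretch is empty of P14 domains by the rule. From the first kb outside to the first kb inside, cover went from 39.3% to 48.6% at intermediate domains and from 54.6% to 62.0% at clustered domains. Further out, at 5 to 10 kb, it was 38.3% and 53.2%.

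**Figure D3:**
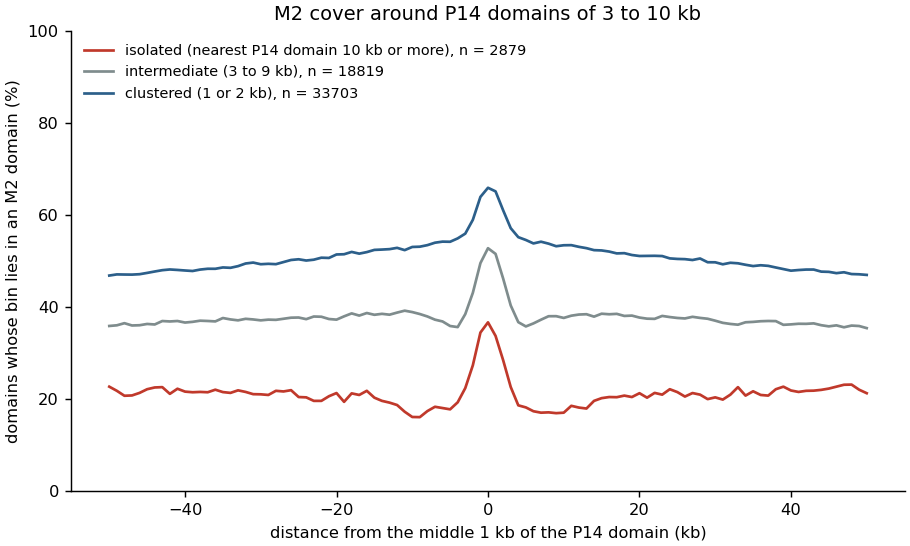
Share of P14 domains whose 1 kb bin lies in an M2 domain, in percent, against distance in kb from the middle bin of the P14 domain, for isolated, intermediate and clustered domains. The lines peak at 36.6%, 52.8% and 65.9% in the middle bin and stand on surroundings of different height, with a shallow trough beside the isolated domains where no P14 domain lies within 10 kb of the edge.

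Much of the gap between isolated and clustered domains went with M2 cover of the surroundings. The flanks from 10 to 50 kb had a median M2 cover of 20% for isolated and 48.8% for clustered domains. With no M2 cover in the flanks at all, 69 of 245 isolated domains (28.2%, interval 22.6 to 34.2) and 106 of 269 clustered domains (39.4%, interval 33.5 to 45.5) were overlapped. With cover of over 20% up to 30%, the shares were 62.6% (398 of 636) and 74.3%, and with over 40% up to 60% they were 78.1% (225 of 288) and 88.9%. In the 6 flank classes up to 60% cover, isolated domains lay 10.8 to 15.7 points below clustered ones. In the class over 60% the gap was 1.10 points, on 38 isolated domains. When clustered domains were weighted to the flank cover of the isolated ones, the difference was -12.4 percentage points, and when they were weighted to both length and flank cover it was -9.38. The flanks come from the M2 list that also defines the overlap, so these values describe the lists and do not separate one cause from another.

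The M2 domain found at an isolated place was mostly short. The longest M2 domain met had a median of 3 kb, with quartiles of 2 and 5 kb, and was shorter than the P14 domain in 899 of 1581 cases (56.9%), equal in 253 and longer in 429 (27.1%). At clustered places the median was 6 kb, and the M2 domain was longer in 58.9% of cases. M2 domains over 10 kb were met by 45 isolated domains (2.85%), against 30.3% of the overlapped clustered ones. At the other end, 237 isolated domains (15.0%) met nothing longer than 1 kb at M2, against 4.26% of clustered ones. The median M2 length at overlapped places stayed at 3 kb for P14 lengths of 3, 4, 5 and 6 kb, and was 4 kb at 7 kb, 5 kb at 8 kb and 5.5 kb at 9 kb. At 10 kb it was 11 kb, and 8 of those 15 M2 domains were longer than the P14 domain.

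The borders mostly lay close together. Of the overlapped isolated domains, 604 (38.2%) held a single M2 domain that was wholly inside and shorter, 427 met one shifted to a side, 293 (18.5%) lay inside a longer one, 95 (6.01%) had the same borders on the 1 kb grid and 162 (10.2%) met more than 1. For clustered domains, 17.7% held a shorter M2 domain inside, 37.8% lay inside a longer one, 3.09% had the same borders and 15.0% met more than 1. Among the 2838 borders of isolated domains that met a single M2 domain, 65.4% lay within 1 kb of the M2 border, and 43.2% were placed further in at M2 against 29.3% further out. At clustered domains 47.1% lay within 1 kb, and 51.9% were further out at M2. An outward distance of 5 kb or more was seen at 2.22% of the isolated and at 21.7% of the clustered borders.

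At a minority of overlapped isolated places the M2 domain was solitary as well. A solitary M2 domain was found at a smaller share of intermediate and clustered places, which by the rule are not solitary at P14. In 309 overlapped isolated cases (19.5%) the M2 domain also lay 10 kb or more from every other M2 domain, against 5.03% of intermediate and 2.18% of clustered cases. In 154 (9.74%) it was in addition 3 to 10 kb long, against 2.43% and 0.977%. In 645 cases (40.8%) another M2 domain lay within 2 kb of it, against 61.1% and 75.9%. The M2 list is denser on the autosomes, with 694.9 Mb marked against 540.6 Mb at P14, and 6.24% of its domains of any length were 10 kb or more from the nearest, against 11.7% at P14.

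Untouched isolated domains were divided between those near an M2 domain and those far from one. The nearest M2 domain was at a median of 8 kb, with quartiles of 2 and 23.8 kb and a highest value of 223 kb. An M2 domain directly adjoined the border in 167 of 1298 cases (12.9%), and the nearest lay within 5 kb in 573 (44.1%). It lay 10 kb or more away in 587 (45.2%), 20 kb or more in 374 (28.8%) and 50 kb or more in 153 (11.8%). Among the 5155 untouched clustered domains the median distance was 2 kb, and 28.8% were adjoined by an M2 domain.

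All 19 autosomes showed the same order of isolated and clustered domains. The share of isolated domains overlapped at M2 ran from 46.5% on chromosome 19 (33 of 71) to 62.4% on chromosome 16 (83 of 133), and that of clustered domains from 79.4% on chromosome 3 to 89.9% on chromosome 11. The highest isolated value lay below the lowest clustered one. The gap was smallest on chromosome 3, with 61.8% and 79.4%, and widest on chromosome 19, with 46.5% and 85.0%. The exact interval of each chromosome's isolated share included the pooled 54.9%, so the order of the chromosomes among themselves is not resolved at these numbers.

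**Figure D4:**
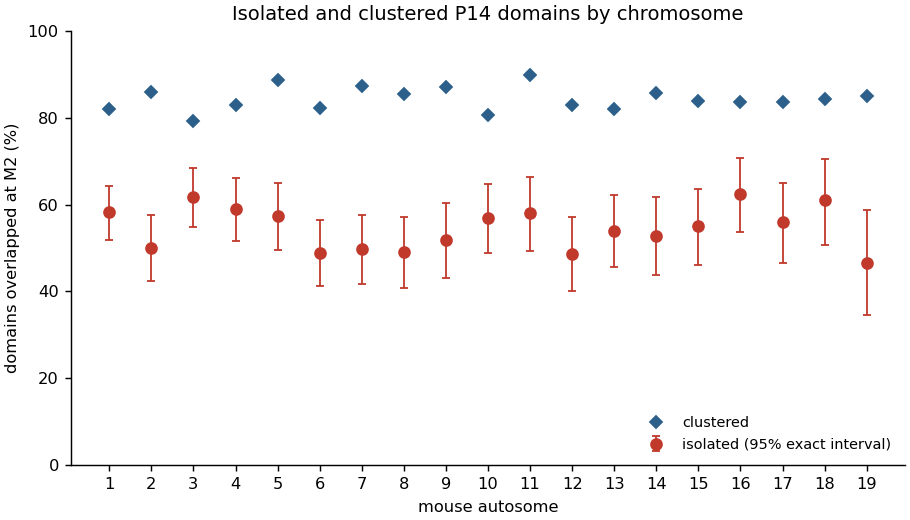
Share of isolated P14 domains (circles, exact 95% intervals) and of clustered P14 domains (diamonds) overlapped at M2, in percent, for each of the 19 autosomes. Every circle, between 46.5% and 62.4%, lies below every diamond, between 79.4% and 89.9%.

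Individual domains are given in mm9 coordinates counted from 1. The most remote was a 4 kb domain at chr11:120390001-120394000, with the nearest P14 domains 96 and 108 kb away. It was untouched at M2, and the nearest M2 domain lay 108 kb away. A 3 kb domain at chr15:68008001-68011000 (92 kb to the nearest P14 domain) and one at chr17:5146001-5149000 (77 kb) were also untouched, with the nearest M2 domain at 38 and 215 kb. The other members of the 5 most remote were marked at M2. At chr11:85988001-85993000 (83 kb), an M2 domain of 1 kb covered 20% of the 5 kb. At chr1:194489001-194492000 (71 kb), an M2 domain of 4 kb covered the whole 3 kb.

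The longest isolated domains without M2 overlap included 3 that measured 10 kb. These were at chr9:86605001-86615000, at chr9:38106001-38116000 and at chr12:116797001-116807000, with the nearest M2 domain 21, 2 and 16 kb away. The 9 kb domains of this kind lay at chr4:61609001-61618000, at chr2:124090001-124099000 and at chr15:58990001-58999000. The nearest M2 domain was at 9, 12 and 31 kb from them. The next 4 measured 8 kb, and lay at chr8:87225001-87233000 (nearest M2 domain 78 kb), chr12:55724001-55732000 (34 kb), chr13:16460001-16468000 (14 kb) and chr1:164770001-164778000 (14 kb).

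Of the 18 isolated domains of 10 kb, 15 were overlapped, 13 of them by a single M2 domain. Cover was 100% in 6, 70% to 90% in 8 and 20% in 1. The M2 domain at chr2:118818001-118828000 measured 10 kb and was displaced by 1 grid bin. At chr6:120437001-120447000, where the nearest P14 domain was 55 kb away, an M2 domain of 14 kb covered the whole. At chr13:73841001-73851000 only 2 kb were covered.

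A few isolated domains lay in, or in 1 case across the border of, long M2 domains. The longest was an M2 domain of 65 kb at chr1:120978001-121043000, which contained the 3 kb domain chr1:121020001-121023000 in a region whose flanks were covered at 88.8% at M2. The next measured 32 kb, at chr5:132925001-132957000 around the 3 kb domain chr5:132951001-132954000. The third measured 23 kb, at chr4:46048001-46071000 around the 10 kb domain chr4:46050001-46060000. The others measured 22 kb around chr18:85399001-85402000, 19 kb around chr8:71371001-71374000, and 17 kb each around chr14:118716001-118726000 and chr12:25430001-25434000. An M2 domain of 17 kb at chr10:22740001-22757000 began inside the P14 domain chr10:22739001-22744000 and left its first kb uncovered. The last of the 10 measured 16 kb, around chr4:43809001-43817000, and 15 kb, around chr14:112073001-112082000. M2 cover was complete in 9 of the 10, and was 80% in that on chromosome 10.

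Among the 95 domains with the same borders at both ages, the longest measured 9 kb, at chr10:83179001-83188000, where another M2 domain lay 1 kb away. An 8 kb domain at chr16:94342001-94350000 was solitary in both lists, with the nearest P14 domain at 58 kb and the nearest other M2 domain at 148 kb. The next in length were 7 kb at chr14:76812001-76819000, 6 kb at chr9:50283001-50289000 and 6 kb at chr3:51198001-51204000, each with another M2 domain within 3 kb.

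**Figure D5:**
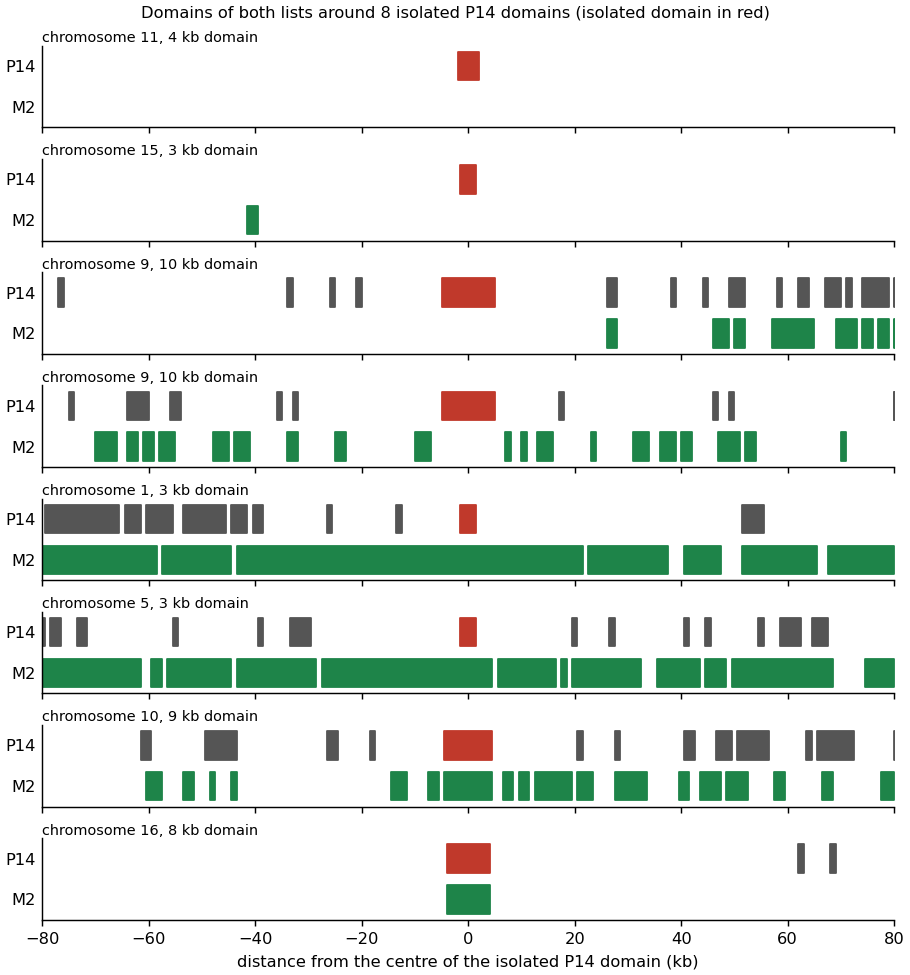
P14 domains (upper row of each panel, isolated domain in red) and M2 domains (lower row, green) against distance in kb from the centre of 8 isolated P14 domains: from the top, the 2 most remote, the 2 longest without M2 overlap, the 2 in the longest M2 domains and the 2 longest with the same borders. The 8 kb domain on chromosome 16 has a matching M2 domain with no other M2 domain in view, and the 3 kb domain on chromosome 1 sits inside the M2 domain of 65 kb.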

How the data were processed

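The deposited data are 2 lists of H3K27me3 domains on mm9, 1 per age, pooled over samples. The submitters' processing notes name STAR 2.4.2a and bedtools without a role. How domains were found, at what threshold and with what role for input is not given in the sources used here. Starts and ends lie on a grid of 1 kb, no height or p-value is attached to a domain, and read depth is unknown. Lengths, distances and overlaps were computed in Python 3.11.15 (pandas 2.3.3, numpy 2.4.6, scipy 1.17.1 for intervals, matplotlib 3.10.9 for figures). The code was tested on lists with planted answers. The members, comparisons and alternatives were chosen with earlier results of these data known. The rule for named regions took the 5 most remote domains, the 10 longest without M2 overlap, 10 in the longest M2 domains and the 5 longest with unchanged borders. The 10 kb domains and the windows of 1 Mb were added after their values were seen. Gene lists planned for mm9 gene positions were left out.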

Additional observations from a re-analysis of the deposited data

How the results depend on the processing

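The isolated share stayed below the clustered share in all 37 alternatives run, 19 of which left out 1 autosome each. Those 19 could not have reversed the order, because the highest isolated share of any autosome lay below the lowest clustered one. The alternatives reuse the same lists and are not independent. Leaving out autosomes moved the isolated share only between 54.4% and 55.3%, the clustered share between 84.3% and 85.0%, and the difference between -30.6 and -29.3 points. Given as isolated share, clustered share and difference in percentage points, cover of 50% or more gave 36.5%, 70.8% and -34.3, cover of 90% or more gave 13.6%, 35.2% and -21.6, and sharing of 50% of both domains gave 30.4%, 36.5% and -6.15. Lengths of 5 to 10 kb gave 76.9%, 94.0% and -17.1, and lengths of 2 to 10 kb gave 42.4%, 75.8% and -33.4. M2 domains of 2 kb or more gave 46.7%, 81.1% and -34.4, and those of 3 kb or more gave 32.2%, 70.7% and -38.5. Counting only P14 neighbours of 2 kb or more gave 62.0%, 87.3% and -25.3, with 9812 isolated domains. Joining domains within 1 kb gave 56.3%, 82.4% and -26.1, and adding X gave 56.2%, 86.7% and -30.4. Isolation from 5 kb gave 64.7% and -20.0, isolation from 20 kb gave 48.1% and -36.6, and a neighbour within 1 kb gave a clustered share of 86.5% and a difference of -31.6. Weighting clustered domains to the lengths of the isolated ones gave 80.9% and -25.9, and to their flank cover 67.3% and -12.4. Alternatives chosen after the data were seen were the middle 1 kb (36.6%, 65.9% and -29.3), an M2 list cut to the P14 covered length by dropping short domains (35.5%, 72.7% and -37.2), and weighting to length and flank cover together (64.3% and -9.38). Cuts to short M2 domains lower every share by construction, and so do the stricter rules of overlap, including the middle 1 kb. For the other changes the cause was not tested. No paired analysis was possible because each age has 1 pooled list. Without read depth, an unlisted place cannot be told from one that was marked below the authors' threshold.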

Other observations

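Isolated focal domains of the M2 list, found by the same rule, numbered 2677 of the 75300 autosomal M2 domains of 3 to 10 kb. P14 domains overlapped 1603 of them (59.9%, exact 95% interval 58.0 to 61.7), against 60.2% of intermediate and 70.0% of clustered M2 domains. In this direction isolated and intermediate domains thus had shares overlapped within each other's counting error, whereas the P14 classes had 54.9% and 73.9%. The isolated and clustered M2 shares were also closer together than the P14 ones, which were 54.9% and 84.7%. Cover in full by P14 domains was seen in 10.4% of isolated, 7.74% of intermediate and 10.5% of clustered M2 domains. The middle 1 kb was covered at P14 in 36.5%, 34.1% and 41.9% of them. Whether the pattern differs between the directions was not tested. There were 154 pairs of isolated focal domains that met, which was 5.35% of the P14 and 5.75% of the M2 set. Isolated focal M2 domains were also met by 337 of the 18819 intermediate and 279 of the 33703 clustered P14 domains. Among overlapped P14 domains these were 9.74% of isolated, 2.43% of intermediate and 0.977% of clustered ones. M2 cover of P14 domains and P14 cover of M2 domains share the same pair of lists and are not independent.

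On chromosome X, 101 of 8131 P14 domains of 3 to 10 kb were isolated (1.24%). M2 domains overlapped 95 of them (94.1%, exact 95% interval 87.5 to 97.8) and covered 80.6% of their length. These values were 98.4% and 90.6% for intermediate domains on X, and 99.2% and 93.3% for clustered ones. The isolated domains of X were thus overlapped more often than those of any autosome, where the highest share was 62.4% on chromosome 16. High overlap was shared by every class of X, and isolated domains had the lowest share there too. The sexes pooled at M2 are unknown, and their part in these values was not tested.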
